A study of Danio rerio with 6 samples.

Results

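The cytosolic ribosome is built from a large and a small subunit, each a ribosomal RNA core clad in ribosomal proteins. The genes for these proteins are among the most strongly transcribed of a growing embryo. In vertebrates their mRNAs start with a terminal oligopyrimidine tract, through which mTORC1 signalling sets their translation together. A shortage of single ribosomal proteins in zebrafish and in humans is known to stabilise p53 through free rpl5 and rpl11, which bind its inhibitor Mdm2.

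Of 31484 counted genes, 79 were cytosolic ribosomal protein genes. They were chosen by symbol, as rpl or rps followed by a number and an optional short suffix such as a, x or l, with the stalk genes rplp0, rplp1, rplp2 and rplp2l added and the rps6k kinases left out. Symbols came from a name table that named 25752 of the gene IDs, often in human-style capitals, and are printed here in lower case for the members. There were 44 genes of the large subunit and 35 of the small subunit, spread over 25 chromosomes with rps27l on the unplaced scaffold KN150108.1. All 79 passed the filter on low counts. Genes for rpsa and rpl27a were not analysed here. The symbols rps4y2, rpl36al, rpl7l1, rpl22l1 and rps19bp1 lay just outside the rule, the last of these being no ribosomal protein, and their log2 fold changes (mutant over wild type) ran from -0.43 for rpl22l1 to 0.20 for rpl7l1.

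RNA came from whole zebrafish embryos (Danio rerio) at 22 hours post fertilization, in 2 groups of 3 biological replicates. One group was homozygous for the wild-type synpo2 allele (synpo2 wt/wt) and the other was homozygous mutant (synpo2 -/-). synpo2 encodes synaptopodin-2, a protein that binds actin and sits at the Z-disc of muscle. The labels give neither the lesion, nor the gene copy that carries it, nor how many embryos went into a library, and no other allele or treatment. Nothing in the labels says whether the embryos of a replicate shared parents, so p-values measure the spread between these samples.

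Library totals were 142789686 counts in wild type replicate 1 and between 32714170 and 34822328 in the other 5. Levels are given in CPM, counts scaled to a common library size after TMM, a trimmed-mean correction of that size. The gene named synpo2b was at 3.96, 3.91 and 6.09 CPM in the wild-type libraries, in replicate order, and at 1.71, 1.58 and 1.52 CPM in the mutants (log2 fold change -1.53, SE 0.27, edgeR adjusted p = 0.150), so the libraries kept the order of their labels without passing the test. Of 30 genes marking muscle, neural tissue, blood, epidermis, heart, vessels, notochord, hatching gland, neural crest and yolk, 29 were above 1 CPM in every library. The exception was the embryonic globin gene hbae1.1, with a lowest value of 0.391 CPM. None was at 0 in any library. In bulk RNA from whole embryos, fewer cells of a type and less RNA per cell cannot be told apart.

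Ribosomal protein genes carried a large part of every library, and the wild-type libraries differed from each other more than the mutant libraries did. The 79 genes took 17.6% of all counts in wild type replicate 1, 10.9% in replicate 2 and 13.96% in replicate 3. In the mutants they took 11.4%, 12.9% and 13.2%. Replicate 1 of the wild type was thus the highest and replicate 2 the lowest of the 6 libraries, with all 3 mutant libraries between them. The mean was 14.1% ± 3.36 in wild type and 12.5% ± 0.994 in mutants (SD, n = 3 each), a difference of -1.64 percentage points (exact two-sided permutation test, p = 0.500, where 3 against 3 cannot go below 0.10). The 95% Wilson interval of each share reached at most 0.0119 percentage points to either side, which covers counting error only. Among the 100 genes with the most counts, 50 were members.

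**Figure D1:**
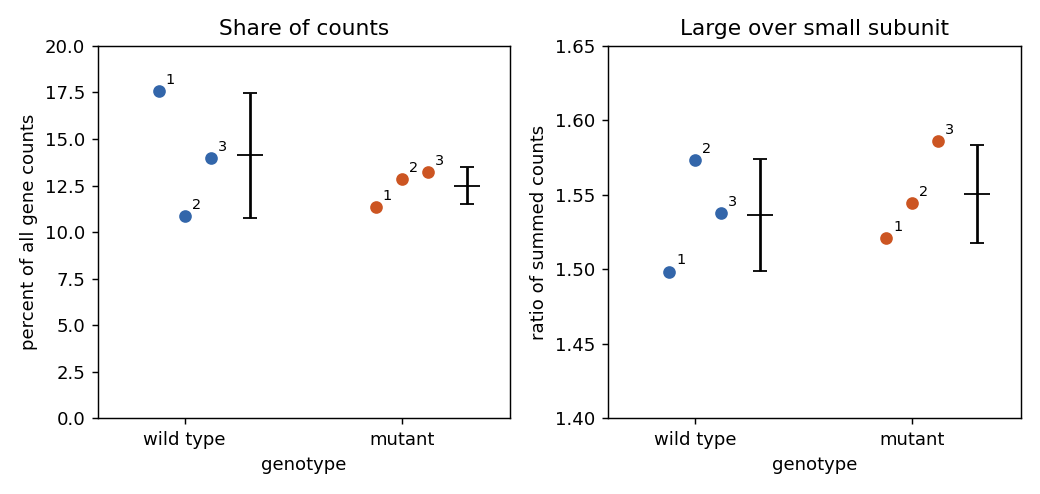
Left, percent of all gene counts that came from the 79 ribosomal protein genes; right, the ratio of large-subunit to small-subunit counts, on an axis that does not start at 0. Points are libraries numbered by replicate, and the bars give mean and SD of 3 libraries; the mutant shares (11.4% to 13.2%) lie between wild type replicates 2 (10.9%) and 1 (17.6%).

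The members moved as a block from library to library. Of the 79 genes, 77 were highest in wild type replicate 1, against 28.8% of the 20415 genes tested, and 77 were lowest in wild type replicate 2, against 20.6%. The 77 genes that were both highest in the first and lowest in the second compare with 10.1% of all genes tested. It follows from this order that all 3 mutant libraries lay inside the wild-type range for the same 77 of 79, against 26.1% of all genes tested. The fold between wild type replicates 1 and 2 had a median of 2.07 over the members and of 1.03 over all genes tested. Within wild type the median SD of log2 CPM was 0.53 for members and 0.28 for all genes. Within mutants it was 0.14 for members and 0.20 for all genes.

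**Figure D2:**
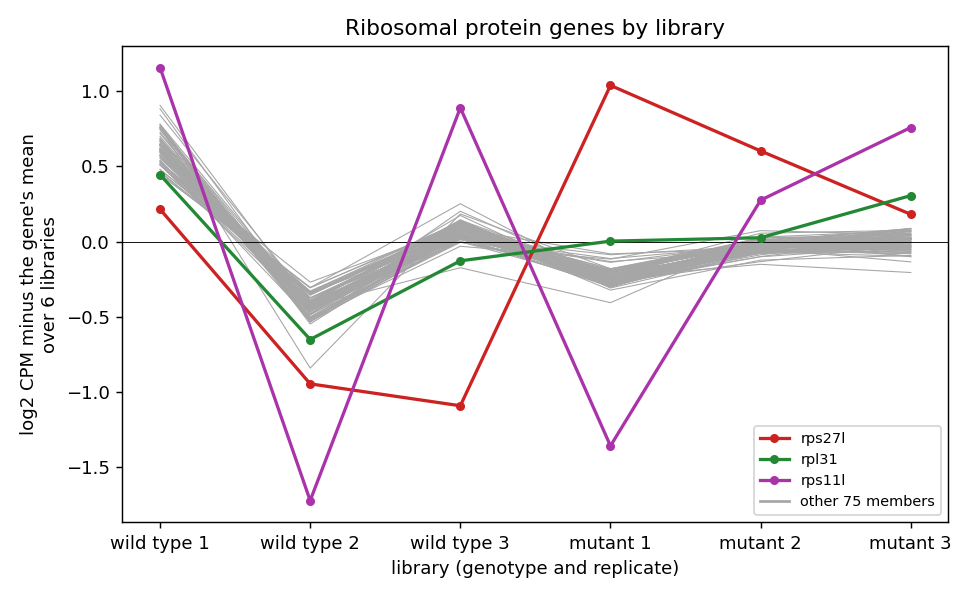
Level of ribosomal protein genes in each library, as log2 CPM minus the gene's own mean over 6 libraries. Grey lines are 75 genes that share the order with wild type replicate 1 at the top and replicate 2 at the bottom; coloured lines are rps27l, rpl31 and rps11l, 1 gene under 1 CPM is not drawn, and of the coloured lines rps27l is highest in mutant replicate 1.

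Depth and the levels of short genes also differed between the libraries. Wild type replicate 2, the lowest in ribosomal protein share, was not the shallowest library (34822328 counts). Wild type replicate 1 was the deepest library. With its counts thinned at random to the mean of the other libraries, the median log2 fold change of the members was -0.24, as it was before. Thinning keeps the expected proportions of the genes, so it cannot show what part depth had, which was not tested. Short genes outside the list were also higher in that library. The median fold between wild type replicates 1 and 2 was 1.43 for 842 non-members with a counted length under 700 nt and 1.01 for 15600 non-members of 1500 nt or longer. For the members it was 2.22 for the 22 under 700 nt and 2.02 for the 21 of 1500 nt or longer. The part that transcript length had in the library differences was not tested.

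Against the genotype, most members had a lower mean in mutants, and no member passed the test. The log2 fold change (mutant over wild type) was below 0 for 76 of 79 genes, where 49.1% of all genes tested were below 0. Its median was -0.24 (quartiles -0.29 and -0.19) against 0.01 over all genes tested. Of the 44 large-subunit genes 43 were below wild type (median -0.23), and of the 35 small-subunit genes 33 were (median -0.24). By edgeR's quasi-likelihood test, 0 of 79 had an adjusted p under 0.05. Of all genes tested 0.0735% did (0.0588% lower and 0.0147% higher in mutants). DESeq2 and limma-voom also called 0 members, where they called 450 and 17 genes in all out of 20415. At an unadjusted p under 0.05 there was 1 member, rps27l, against 11.2% of all genes. The ranges of the genotypes in CPM were apart for 0 members, against 18.1% of all genes. For the 77 members with all mutant libraries inside the wild-type range this follows from that order.

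The direction rested on wild type replicate 1. Without it, 12 of 79 genes were below wild type and the median was 0.072. Without wild type replicate 2, 77 were below and the median was -0.43. In that fit 23 members were at an unadjusted p under 0.05, with a smallest edgeR adjusted p of 0.245, for rplp2. The share of all genes tested at that unadjusted level in that fit is not reported here. Because the members moved together, the 23 are not independent results. The remaining 4 left-out libraries gave medians between -0.28 and -0.14.

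**Figure D3:**
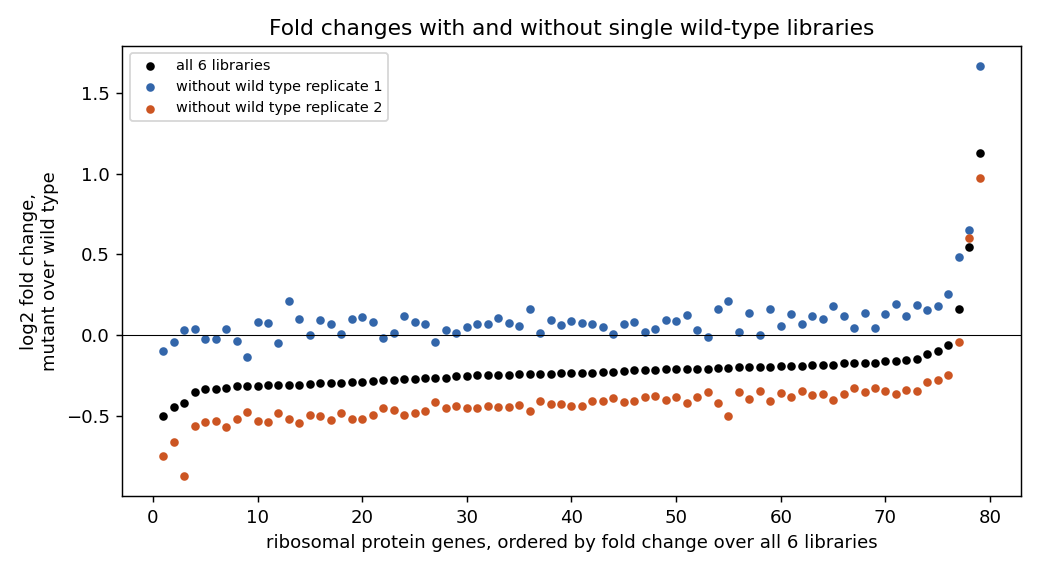
Log2 fold change of each of the 79 genes (vertical axis), ordered along the horizontal axis by its value over all 6 libraries (black). Blue points leave out wild type replicate 1 and orange points leave out wild type replicate 2; the median goes from -0.24 to 0.072 without the first and to -0.43 without the second.

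The stalk genes, whose acidic P proteins recruit elongation factors to the large subunit, all had a lower mean in mutants. rplp0, the base of the stalk (chromosome 5, 1685335 to 1698173, minus strand, GRCz10), was at 9134, 4659.6 and 6149 CPM in wild type and at 4974, 5906 and 6350.3 CPM in the mutants. Its mutant values lay between the wild-type extremes (log2 fold change -0.21, SE 0.27). rplp1 (chromosome 19, 1902223 to 1905513, minus strand) was at 3958, 1686 and 2354 CPM in wild type and at 1769, 2031 and 2076 CPM in mutants. rplp2 (chromosome 6, 49510152 to 49511900, minus strand) was at 614, 238 and 383 CPM in wild type and at 282, 300.3 and 289 CPM in mutants. These 2 genes had the lowest fold changes of the list, -0.44 (SE 0.30) for rplp1 and -0.50 (SE 0.31) for rplp2, with overlapping ranges and edgeR adjusted p values of 0.615 and 0.575. Without wild type replicate 1 they were at -0.0442 and -0.0958. rplp2l, the more abundant copy of rplp2, was at -0.29 (SE 0.29).

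The next lowest fold changes were of small-subunit genes. rps18, which lies on the head of the subunit (chromosome 19, 19154755 to 19164172, minus strand), was at 1798, 852 and 1232 CPM in wild type and at 933, 1078 and 1063 CPM in mutants (log2 fold change -0.34, SE 0.26). The rps26 gene of chromosome 23 (ENSDARG00000037071) was at 892, 388 and 535 CPM in wild type and at 431, 484 and 508 CPM in mutants (-0.35, SE 0.29). rps11l, a gene with 1 exon entry on chromosome 8 (26683540 to 26684096, minus strand) inside the span of tmem51a, was at 13.2, 1.8 and 10.98 CPM in wild type and at 2.32, 7.17 and 10.0 CPM in mutants. It varied by 7.34-fold between wild type replicates 1 and 2, more than any other member, and its log2 fold change was -0.42 with an SE of 0.75. Reads of rps11l and tmem51a cannot be told apart where their exons overlap.

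Genes known from human ribosomal disorders or from p53 signalling followed the block. rps19 is the gene first linked to Diamond-Blackfan anaemia. It was at 2083, 968 and 1413 CPM in wild type and at 1151, 1297 and 1340.3 CPM in mutants, a log2 fold change of -0.24 (SE 0.27) that is also the median of the list. rps14, lost in a human myelodysplastic syndrome, was at -0.25 (SE 0.26), and rpl11 was at -0.19 (SE 0.29). The pair of rpl5 genes were at -0.21 (SE 0.24, chromosome 6) and -0.31 (SE 0.36, chromosome 2). rps27a, made as a fusion with ubiquitin, was at 3022, 1439 and 2104 CPM in wild type and at 1537, 1808 and 1869 CPM in mutants (-0.33, SE 0.27). The edgeR adjusted p of these 6 genes ran from 0.670 to 0.830.

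3 members had a higher mean in mutants. rps27l (scaffold KN150108.1, 368 to 9008, minus strand), a variant copy of rps27 that in human is a direct p53 target, was at 78.9, 35.3 and 31.9 CPM in wild type and at 139.5, 103 and 77.1 CPM in mutants. Wild type replicate 1 lay just above mutant replicate 3, and the other 2 wild-type libraries were below every mutant library. The log2 fold change was 1.13 (SE 0.38, edgeR adjusted p = 0.368). Over the 18 alternatives it stayed above 0, between 0.90 and 1.66, with adjusted p values from 0.101 (DESeq2) to 0.864 (edgeR without mutant replicate 2). rpl31, at the exit of the peptide tunnel (chromosome 9, 56637734 to 56644520, minus strand), was at 1677, 786 and 1129 CPM in wild type and at 1236, 1255 and 1524 CPM in mutants. Its ranges overlapped (log2 fold change 0.16, SE 0.27, adjusted p = 0.847), and without wild type replicate 2 the value was -0.04. The third had a mean under 1 CPM.

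Copies of 1 protein were compared through their share of the summed counts, a measure from which variation common to the copies drops out. Of rps27.1, rps27.2 and rps27l together, rps27l held 2.52%, 2.58% and 1.62% in wild type and 7.95%, 5.41% and 3.93% in the mutants. Every mutant library was above every wild-type library. The mean share was 2.24% ± 0.537 in wild type and 5.76% ± 2.04 in mutants (SD, n = 3 each). The share of rps27.1 was lower in each mutant library (54.4% to 54.6%) than in each wild-type library (54.9% to 60.1%), while that of rps27.2 overlapped. Shares of the copies add up to the whole, so the lower share of rps27.1 is not a result separate from the higher share of rps27l. These shares were singled out after the values were seen, so they are given with no test.

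**Figure D4:**
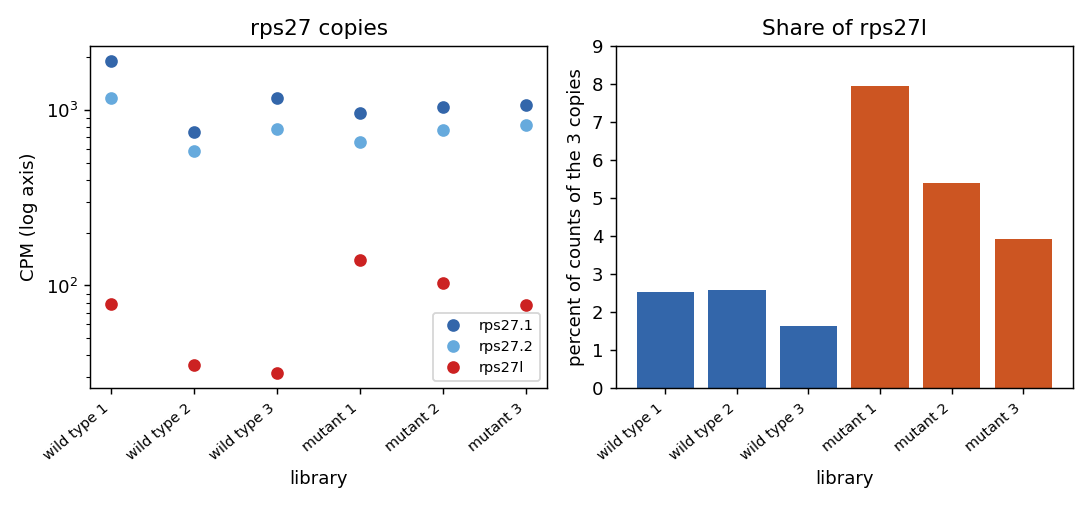
Left, CPM of the 3 rps27 copies in each library on a log axis; right, percent of the summed counts of the 3 copies that came from rps27l, wild type in blue and mutants in orange. rps27l holds 1.62% to 2.58% in wild type and 3.93% to 7.95% in mutants, while rps27.1 and rps27.2 keep the order of the other members.

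Shares of the rps26, rpl5 and rplp2 copies overlapped between the genotypes. The rps26 gene of chromosome 6 held 62.9% ± 1.89 of the rps26 counts in wild type and 65.3% ± 0.981 in mutants. The rpl5 gene of chromosome 2 held 57.3% in wild type replicate 1 and between 45.3% and 51.3% elsewhere. rplp2l held 78.5% ± 1.20 and 80.6% ± 1.31 of the rplp2 pair. rpl22l1, the paralogue that in mouse is held down by Rpl22, lay outside the rule. It held 31.5%, 31.9% and 34.1% of the pair with rpl22 in wild type and 27.9%, 29.6% and 29.4% in mutants, with the ranges apart, and its own log2 fold change was -0.43 (SE 0.28, edgeR adjusted p = 0.588). The labels do not say how reads that map to more than 1 place were counted, so near-identical copies may have exchanged reads.

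Proportions within the ribosomal protein total stayed close. With the summed counts of the 79 genes as library size, 69 had a log2 fold change within 0.1 of 0 and 75 within 0.2, and 43 were below 0. Scaling the members by their own sum sets them near 0 as a group, so the 43 shows no direction. The shares of all genes tested within 0.1 and 0.2 are not reported here. This scaling moved the median of all genes tested to 0.13. rps27l was at 1.42 (SE 0.34, edgeR adjusted p = 0.454) and rpl31 at 0.40 (SE 0.16, edgeR adjusted p = 0.999). They were the 2 members at an unadjusted p under 0.05, where 4.14% of all genes tested on this scale were. rpl31 made up 0.837%, 0.797% and 0.816% of the total in wild type and 1.11%, 0.978% and 1.15% in mutants, so that its ranges were apart. On this scale the ranges were apart for 19 of 79 members, 11 higher and 8 lower in mutants, against 9.56% of all genes tested. The members are scaled here by their own sum, which removes the variation that they share, and the 2 figures are not like for like. Among the 11 were rpl12, rpl19 and rps21, and among the 8 were rplp1, rps18, rps27a and rps3. rplp1 made up 1.98%, 1.71% and 1.70% of the total in wild type and 1.58%, 1.58% and 1.57% in mutants.

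The balance of the subunits did not differ beyond the spread of the libraries. Large-subunit genes held 1.498, 1.57 and 1.54 counts for each small-subunit count in wild type, and 1.52, 1.54 and 1.59 in the mutants. The ratio was 1.54 ± 0.0375 in wild type and 1.55 ± 0.0330 in mutants (SD, n = 3 each; exact two-sided permutation test, p = 0.700).

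Levels differed widely between members when set per kilobase of counted exon length (RPKM). Among the 76 genes of at least 100 CPM, RPKM ran from 462 for rps24 to 5282 for rplp0, with a median of 1567. rplp0 stood at 5667 ± 1943 in wild type and 4896 ± 599 in mutants (SD, n = 3 each), followed by rps20 at 4625 ± 1952 and 3767 ± 228, rps7 at 3933 ± 1351 and 3513 ± 315, rps12 at 4030.5 ± 1774 and 3296 ± 321, and rpl26 at 3937 ± 1565 and 3317 ± 423. In wild type these neighbours lay within each other's SD. That SD is mostly the variation between libraries that the members share, so it says little about their order. In mutants rplp0 lay above rps20 by more than their SDs. Among the lowest were rps11l (13.6 RPKM), rps27l (131.6), rps24 (462) and rpl31 (463). The counted lengths of rps24 (3569 nt) and rpl31 (2736 nt) were the longest in the list and enter these values.

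Many members are also hosts of small nucleolar RNAs, which guide the modification of ribosomal RNA. The span of 12 members held a gene named as a SNORA or SNORD RNA, among them rplp0, rps7, rpl13a and rps3. In all, 31 members overlapped another annotated gene and 8 overlapped one on the other strand. The labels do not give the strand setting of the counting, so it is not known whether reads from opposite strands were told apart at these genes.

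Other genes of the translation machinery were examined from lists chosen with earlier results of these data known. fau encodes a small-subunit protein fused to a ubiquitin-like protein, and rack1 binds the small subunit. Both followed the block, highest in wild type replicate 1 and lowest in replicate 2. FAU was at 1589, 739.9 and 1041 CPM in wild type and at 847, 965 and 984 CPM in mutants (log2 fold change -0.27, SE 0.27). Of 27 translation factors and other mRNAs of the terminal oligopyrimidine class, 22 were highest in wild type replicate 1 and 14 lowest in replicate 2. The shares of all genes tested were 28.8% and 20.6%. In mutants 22 of the 27 were below wild type (median -0.11), where 49.1% of all genes tested were. Without wild type replicate 1 it was 13 of the 27 (median 0.02), and 0 passed. EEF1D (ENSDARG00000030053), a subunit of the elongation factor that reloads eEF1A, was at 422, 228 and 289 CPM in wild type and at 188, 216 and 220.5 CPM in mutants, with the ranges apart (log2 fold change -0.59, SE 0.22, edgeR adjusted p = 0.403). The related gene eef1da was at -0.50 (SE 0.22) and the elongation factor gene eef2a.1 at -0.28 (SE 0.14). EEF1D, eef1da and eef2a.1 were named for the smallest p of their list, and 18.1% of all genes tested had ranges apart.

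Over all 6 libraries, genes that build ribosomes lay on the other side of 0 from the members. Of 75 ribosome biogenesis genes 70 had a higher mean in mutants (median 0.21), and of 13 RNA polymerase I genes 13 had (median 0.25), where 49.1% of all genes were below wild type. By edgeR's test 0 of either list passed over all genes, with 16 of 75 and 4 of 13 at an unadjusted p under 0.05 against 11.2% of all genes. Over the 18 alternatives between 64 and 74 of the 75 and between 11 and 13 of the 13 were higher. Their medians ran from 0.14 to 0.34 and from 0.16 to 0.38, both lowest without mutant replicate 2. Without wild type replicate 1 the ribosomal protein genes lay on this side too, with 67 of 79 higher in mutants (median 0.072). WDR12 (a partner of pescadillo in large-subunit maturation) was at 65.3, 69.1 and 63.0 CPM in wild type and at 87.8, 87.4 and 83.7 CPM in mutants (log2 fold change 0.39, SE 0.09, adjusted p = 0.265). NIP7 (0.53, SE 0.13) and GNL2 (0.35, SE 0.09), both factors of large-subunit maturation, also had every mutant library above every wild-type library. So did ubtf (0.36, SE 0.11), the factor that keeps ribosomal DNA open for RNA polymerase I, and likewise POLR1C (0.36, SE 0.12) and RRN3 (0.33, SE 0.12). These genes were named for the smallest p of their lists, which favours ranges that are apart. Of all genes tested, 18.1% had ranges apart in either direction.

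The mitochondrial ribosome, a separate particle, shared part of the library order. Of 73 of its genes, 53 were highest in wild type replicate 1 (28.8% of all genes tested) and 62 lowest in replicate 2 (20.6%). In mutants 47 were above and 26 below wild type (median 0.07), where 49.1% of all genes tested were below. By edgeR 0 passed, with 2 at an unadjusted p under 0.05, against 11.2% of all genes tested. Over the 18 alternatives between 36 and 68 of the 73 were above, and their median ran from -0.01 to 0.24. Of 22 mTORC1 and S6 kinase genes 13 were above and 9 below (median 0.06), with 0 passing. At an unadjusted p under 0.05 there were 2, against 11.2% of all genes tested. Without wild type replicate 1 this list had 11 above and 11 below (median 0.01), and without wild type replicate 3 it had 17 above (median 0.11). DDIT4, a stress-induced inhibitor of mTORC1, was at 81.0, 57.6 and 39.2 CPM in wild type and at 21.8, 36.0 and 25.2 CPM in mutants (log2 fold change -1.10, SE 0.29, adjusted p = 0.300), and PDCD4 (ENSDARG00000041022), a translation inhibitor degraded after S6 kinase action, was at -0.56 (SE 0.16). sesn3, a sestrin gene whose product also restrains mTORC1, was at 33.9, 42.9 and 40.5 CPM in wild type and at 137.5, 53.7 and 40.2 CPM in mutants, with overlapping ranges and mutant replicate 1 far above the rest (log2 fold change 0.98, SE 0.43, edgeR adjusted p = 0.458).

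**Figure D5:**
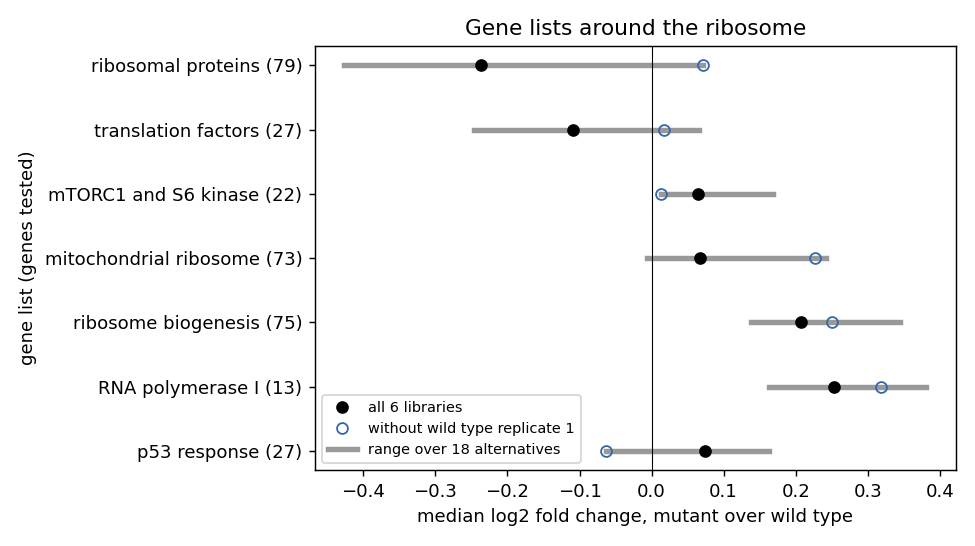
Median log2 fold change (mutant over wild type) of 7 gene lists, with the number of genes tested. Black points use all 6 libraries, open blue circles leave out wild type replicate 1, and grey bars span 18 alternatives. The bar of ribosomal proteins runs from -0.43 to 0.072, with the black point at -0.24. That of ribosome biogenesis runs from 0.14 to 0.34.

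The p53 response is set beside rps27l because of the known link to ribosomal proteins. Of 27 tested genes 15 were above and 12 below wild type (median 0.07, between -0.06 without wild type replicate 1 and 0.16 over the alternatives). By edgeR 0 passed and 9 were at an unadjusted p under 0.05, against 0.0735% and 11.2% of all genes tested. PHLDA3, an Akt inhibitor induced by p53, was at 14.5, 8.84 and 7.93 CPM in wild type and at 35.8, 21.9 and 19.6 CPM in mutants. The genes named here had the smallest p of the list, and how many other genes share the library order of rps27l was not counted. The part of p53 in these levels was not tested. The libraries of PHLDA3 had the same order as those of rps27l in both genotypes. The caspase gene casp8 had this order too (9.67, 6.73 and 6.39 CPM against 33.0, 17.6 and 15.4 CPM), while DDB2, of DNA damage recognition, did not (11.2, 12.5 and 13.1 CPM against 18.2, 22.2 and 20.9 CPM).

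Tissue markers had mostly lower means in mutants but did not share the library order of the members. Of the 30 marker genes 24 were below wild type (median -0.21, or -0.08 relative to the ribosomal protein total), where 49.1% of all genes tested were. Without wild type replicate 1 it was 23 of the 30 (median -0.16). Of the 30, 9 were highest in wild type replicate 1 and 3 lowest in wild type replicate 2, against 28.8% and 20.6% of all genes tested. By edgeR 0 passed, and 8 were at an unadjusted p under 0.05, against 11.2% of all genes tested. The summed level of the markers was 24271 to 27110 CPM in wild type and 19254 to 27266 CPM in mutants. A few genes set this sum. The keratin gene krt4 alone was at 9101 to 13503 CPM over the libraries. In mutant replicate 1, which had the highest sum, apobb.1 was at 4749 CPM and apoa1b at 3674 CPM. The muscle myosin gene myhz2 was at 158, 175 and 303 CPM in wild type and at 33.2, 48.7 and 96.4 CPM in mutants, and the skeletal actin genes named ACTA1 had log2 fold changes of -0.96 (SE 0.27, ENSDARG00000055618) and -0.77 (SE 0.22, ENSDARG00000036371). apobb.1, an apolipoprotein B gene of the yolk layer chosen after its values were seen, was at 565, 1269 and 438 CPM in wild type and at 4749, 1490.5 and 393 CPM in mutants. The part of such differences in the ribosomal protein levels was not tested.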

How the data were processed

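The 6 libraries of whole-embryo RNA were grouped by the genotype in their titles. Tools named in the submitters' processing notes are STAR 2.5.2b and Trimmomatic 0.36, with GRCz10 as the genome. The authors deposited whole-number raw counts per gene for each library, with exonic length, per the file headers. The sources used here do not name the counting program, its strand setting or the annotation release.

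Low genes were removed by filterByExpr (edgeR 4.0.16, R 4.3.3), and the rest were scaled by TMM and tested by the quasi-likelihood F test (robust, two-sided) on all 20415 kept genes with Benjamini-Hochberg adjustment at 0.05. SE is the size of the log2 fold change divided by the square root of F. RPKM are CPM per kilobase of counted length. Library values were compared by exact permutation tests (scipy 1.17.1). Alternatives used DESeq2 1.42.0 and limma 3.58.1, among others. On simulated counts for this comparison (20153 genes), edgeR recovered 30% of genes changed 2-fold and 88% at 4-fold, with 18 false calls.

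The members, lists and tests were chosen with earlier results of these data known. The rule for named members took calls under 0.05, the 5 largest rises and falls at a mean of at least 1 CPM, the 5 highest and lowest by RPKM, stem-sharing copies, stalk genes and disease genes, and up to 3 genes per other list by smallest p. Only 2 members at that level had a rise. Members that share only a number (such as rpl7 and rpl7a) encode different proteins and are covered by the counts. List entries were matched ignoring case, or without a final a or b, and sesn1 and sesn2 stand in both the p53 and mTORC1 lists. Some members and list genes that this rule takes are not reported here by name, though they stay in all counts and medians. Sequences and promoter motifs were not analysed here.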

Additional observations from a re-analysis of the deposited data

How the results depend on the processing

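Under each of the 18 alternatives 0 members were called in either direction. The count below wild type was 43 with the ribosomal protein total as library size, and 12 to 77 when each library was left out in turn, where the median ran from -0.43 to 0.072. It was 75 or 76 under the others. On these left-out libraries the difference in share ran from -3.28 to 0.075 percentage points and that in subunit ratio from -0.0049 to 0.033. The sign turned without wild type replicate 1 for both, and without mutant replicate 3 for the ratio. Log2 fold changes likewise ran from -0.0406 to 0.48 for rpl31, -0.87 to 0.0317 for rps11l, -0.56 to 0.0400 for rps26 of chromosome 23, -0.38 to 0.0883 for rplp0, -0.50 to 0.0789 for rplp2l, -0.44 to 0.0852 for rps19, -0.45 to 0.0471 for rps14, -0.40 to 0.18 for rpl11, and -0.39 to 0.0291 and -0.52 to 0.21 for the rpl5 genes of chromosomes 6 and 2. Without wild type replicate 1, rplp1 was at -0.0442, rplp2 at -0.0958, rps18 at -0.0240 and rps27a at -0.0273. Relative to the ribosomal protein total, rplp0 was at 0.014, rps19 at 0.0060, rpl11 at 0.071 and rpl5 of chromosome 6 at 0.0071. That scaling sets the members near 0 as a group, so these last signs show no direction. The cause of the turns with libraries left out was not tested beyond the libraries named. Genes called in all were 15, and 450 with DESeq2, 44 with no filter, 8 with the stricter filter, 0 with the replicate block and 0 to 16 with single libraries left out.

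Same-numbered samples did not pair (correlations of deviations -0.23, -0.10 and 0.18). The replicate block gave a median of -0.18 for the members, 75 below wild type and 0 called. For share and ratio, an exact test that flips the signs of the 3 same-numbered differences gave p = 0.75 each. With 3 pairs this test cannot go as low as the 0.10 of the permutation test. Depth limits genes of few counts, such as hbae1.1 (13 to 137 counts) and synpo2b (52 to 496). Promoter motifs were not run because no sequence was used here.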
